A study of Homo sapiens with 6 samples.

Results

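RGS proteins, the regulators of G-protein signalling, were followed here as 10 genes (RGS2, RGS3, RGS4, RGS5, RGS10, RGS12, RGS14, RGS16, RGS17 and RGS19) among 19775 genes that single-gene probe sets of the array represent. The members were chosen by gene symbol with earlier results of these arrays in view, among them the higher RGS2 signal under TET siRNA and the brightness of the probe sets, so every difference between the siRNA groups is given for them as a description. They had 34 probe sets, of which 20 lay in the upper 50% of all probe sets by signal and entered the tests, and each of the 10 genes had at least 1 such probe set. The other 10 numbered RGS genes had 23 probe sets, of which 3 lay in that upper 50%, for RGS7 and RGS20.

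The study measured total RNA on 6 one-colour Affymetrix arrays from Flp-In T-REx 293 cells, a HEK293 derivative (a human embryonic kidney line) built to take a transgene at a fixed genomic site. In 3 arrays the cells had been given siRNAs against TET1, TET2 and TET3 together, and in the other 3 a pool of siRNAs without a target, each 96 h before RNA was taken. All cells carried a stable, inducible GFP transgene that was not switched on, and the same 3 clones, numbered 1 to 3, appear under both treatments. The TET enzymes convert 5-methylcytosine in DNA to its oxidised forms, and the arrays compare transcript levels between cells given siRNAs against all 3 and cells given siRNAs without a target.

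When a G protein-coupled receptor is activated, the alpha subunit of its G protein binds GTP, separates from the beta-gamma pair and signals until the GTP is cleaved. RGS proteins bind the active alpha subunit through their RGS domain and speed up that cleavage, which shortens the signal. The small proteins of the R4 subfamily (RGS2, RGS3, RGS4, RGS5 and RGS16) consist of little more than the RGS domain except for long forms of RGS3, those of the RZ subfamily (RGS17 and RGS19) carry a cysteine string, and the R12 subfamily holds the small RGS10 and the multi-domain RGS12 and RGS14, which also bind Ras-family proteins and inactive alpha subunits.

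The TET enzymes act on methylated CG dinucleotides, so the promoters of RGS2, whose difference between the siRNA groups was the largest among the brightest probe sets of the 10 genes, of RGS17, which differed most between clones, and of RGS3, whose window is the poorest in CG of those read, are shown with each CG in capitals. They are the 250 bases before the transcription start in RefSeq, build GRCh38.p14, at chr1:192808789-192809038 on the plus strand for RGS2, chr6:153131283-153131532 on the minus strand for RGS17 and chr9:113444480-113444729 on the plus strand for RGS3.
RGS2: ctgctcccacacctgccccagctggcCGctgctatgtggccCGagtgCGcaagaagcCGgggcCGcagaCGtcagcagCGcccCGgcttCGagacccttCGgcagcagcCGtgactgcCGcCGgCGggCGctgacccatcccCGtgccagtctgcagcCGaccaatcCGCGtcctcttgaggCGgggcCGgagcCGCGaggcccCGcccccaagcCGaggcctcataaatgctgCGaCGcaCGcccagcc
RGS17: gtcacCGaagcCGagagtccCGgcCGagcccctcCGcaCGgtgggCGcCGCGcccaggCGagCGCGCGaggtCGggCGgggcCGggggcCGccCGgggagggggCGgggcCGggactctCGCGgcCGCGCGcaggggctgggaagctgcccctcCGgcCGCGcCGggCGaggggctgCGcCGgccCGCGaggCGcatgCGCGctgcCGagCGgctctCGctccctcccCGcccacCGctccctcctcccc
RGS3: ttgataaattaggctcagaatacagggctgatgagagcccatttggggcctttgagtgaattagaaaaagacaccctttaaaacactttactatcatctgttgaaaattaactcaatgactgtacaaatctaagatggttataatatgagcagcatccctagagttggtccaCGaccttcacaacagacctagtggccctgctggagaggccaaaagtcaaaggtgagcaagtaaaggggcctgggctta
The RGS2 window holds 28 CG, and 15.9% of 35116 promoters hold at least as many. The RGS17 window holds 42, a count that 1.4% of promoters reach, and the RGS3 window holds 1, while 93.9% of promoters hold 1 or more. The median promoter holds 11. RGS19 has 36 CG, RGS10 has 26, RGS5 and RGS16 have 22 each, RGS14 has 13, RGS12 has 12 and RGS4 has 5. CG reads the same on both strands and was counted once per position. For each member 1 start site was read, so windows at any other start of a gene are not described. DNA methylation was not measured in these arrays, and the counts describe sequence only.

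The siRNA targets were lower on the arrays. The brightest TET1 probe set averaged 585 ± 123 under TET siRNA and 3222 ± 216 under non-targeting siRNA (SD, n = 3 each), that of TET2 380 ± 85.5 and 801 ± 78.6, and that of TET3 545 ± 44.8 and 1276 ± 160, all in MAS5 signal, a linear brightness value per probe set. Of 9 markers of HEK293 cells, 8 lay in the upper 50% and LHX1 lay below it. Of 14 markers of other cell types, 10 lay below it, PTPRC and CDH5 among them, and COL1A1 (981 ± 107 under TET siRNA and 1153 ± 163 under non-targeting siRNA), PECAM1, LUM and DES lay above it. The summed marker signal of those 14 ranged over 1927 to 2054 under TET siRNA and 1824 to 2333 under non-targeting siRNA, and that of the HEK293 markers over 65208 to 77501 under TET siRNA and 75588 to 80768 under non-targeting siRNA. In bulk RNA, fewer cells that express a gene and less of its RNA per cell cannot be told apart.

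RGS2, which limits signalling through Gq, was the member that differed most between the siRNA groups at its brightest probe set. Its signal was 2408, 2401 and 2648 under TET siRNA in clones 1, 2 and 3, against 1812, 1689 and 1799.6 under non-targeting siRNA in the same clones. All 3 arrays with TET siRNA lay above all 3 without. The log2 difference was 0.49 on average, a 1.41-fold higher level, and 0.41, 0.51 and 0.56 in clones 1, 2 and 3. RGS2 has 1 probe set on the array, so no second probe set bears on it.

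**Figure D1:**
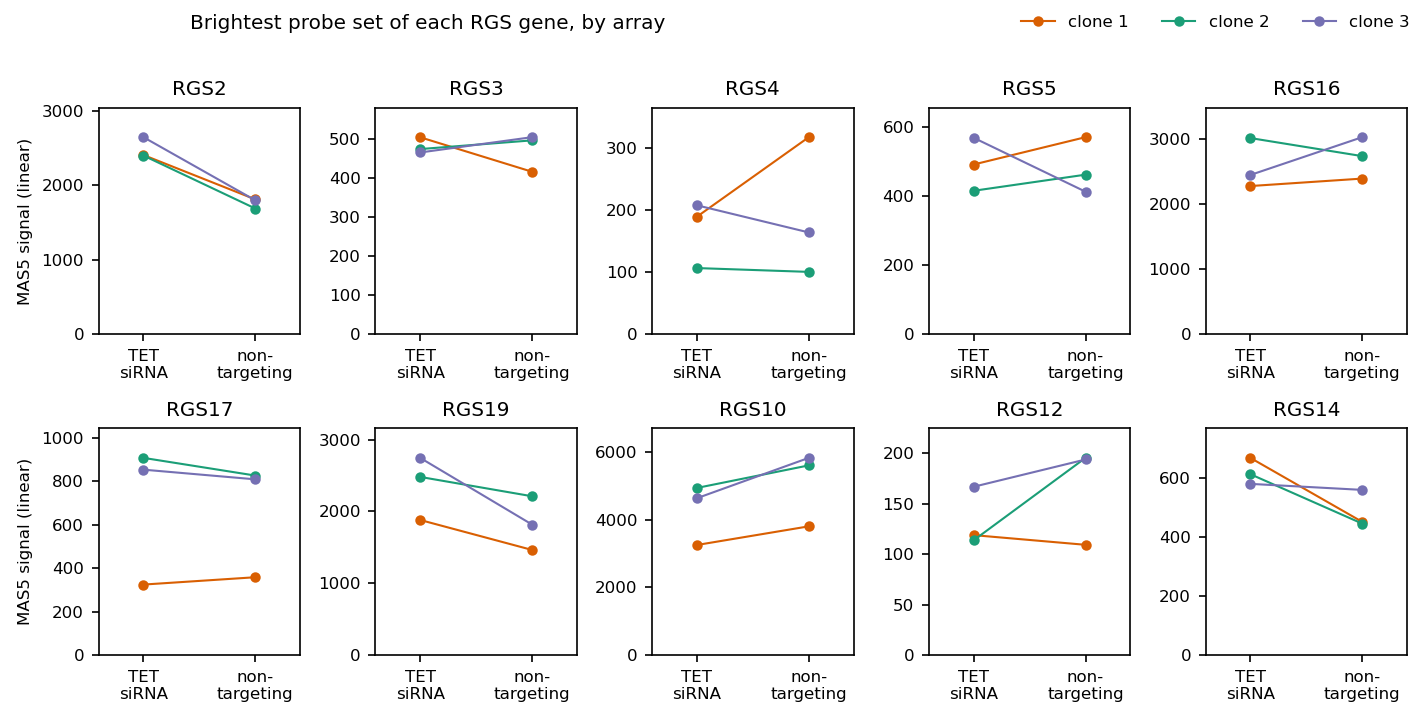
MAS5 signal (linear axis from 0) of the brightest probe set of each RGS gene, with TET siRNA on the left and non-targeting siRNA on the right of each panel and a line for each clone. The RGS2 lines all slope the same way, as do the lines within RGS10, within RGS14 and within RGS19. Over all tested probe sets 36.2% had the same direction in the 3 clones. In RGS17 the line of clone 1 lies at 324 and 358, far below the others.

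The other members of the R4 subfamily showed no such separation. RGS16, which acts on Gi and Gq, had a signal of 2281, 3019.6 and 2452 under TET siRNA in clones 1 to 3, against 2396, 2742 and 3033 under non-targeting siRNA. The groups overlapped, and the log2 difference was -0.08 at this probe set and -0.01 at the next, with clone 2 higher and clones 1 and 3 lower at both. RGS3, whose long forms also carry other domains, had 506, 475 and 467 under TET siRNA, against 417, 498 and 506 under non-targeting siRNA. Its log2 difference of 0.03 came from clone 1 at 0.28 with the other clones below 0, and became -0.01 under quantile normalization. The second RGS3 probe set had 0.31, which rested on a signal of 53.2 in clone 3 under non-targeting siRNA, where that clone had 139.8 under TET siRNA.

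RGS4 and RGS5, both known as brakes on Gi and Gq signalling and RGS5 also as a marker of pericytes, are neighbours on chromosome 1. RGS4 was dim: its brightest probe set had 189, 107 and 208 under TET siRNA, against 318, 101 and 164 under non-targeting siRNA. Clone 1 differed by -0.75 on the log2 scale and clones 2 and 3 by 0.09 and 0.34, so the mean of -0.11 hides opposite directions. The 6 RGS5 probe sets all lay in the upper 50%, and 5 of them were higher on average under TET siRNA. At the brightest, the signal was 492, 415 and 569 under TET siRNA, against 571, 462 and 413 under non-targeting siRNA, and the log2 difference of 0.03 turned to -0.01 with quantile normalization. The dimmest of the 6 had the largest difference, 0.71, with 147, 112 and 233 under TET siRNA, against 114, 71.4 and 107 under non-targeting siRNA. Its groups still overlapped, since clone 2 under TET siRNA lay below clone 1 under non-targeting siRNA. The 6 differences ran from -0.04 to 0.71, so the probe sets of this gene disagreed.

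**Figure D2:**
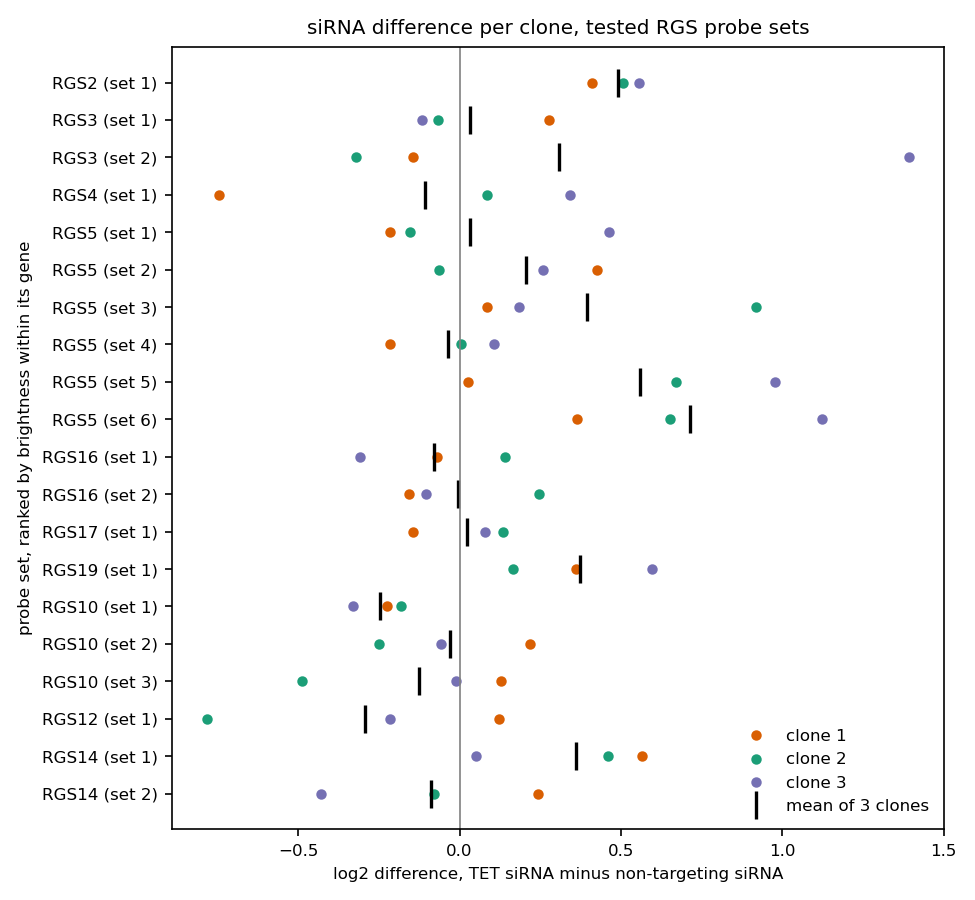
Log2 difference of TET siRNA minus non-targeting siRNA (horizontal axis) for the 20 tested RGS probe sets, numbered by brightness within each gene, with a point per clone and a bar at the mean. The 3 points of RGS2 lie together at 0.41 to 0.56, while those of RGS3 (set 2) spread from -0.32 to 1.39.

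In the RZ subfamily, RGS19, a regulator of Gi-type alpha subunits, had a signal of 1879.8, 2479 and 2744 under TET siRNA, against 1463, 2210.1 and 1816 under non-targeting siRNA. Each clone was higher under TET siRNA, by 0.36, 0.17 and 0.60 on the log2 scale, with a mean of 0.37. By its name the RGS19 probe set, like the brightest ones of RGS10 and RGS16, may read more than 1 transcript. The groups overlapped, because clone 1 under TET siRNA lay below clone 2 under non-targeting siRNA. RGS17, which acts on Gz and other Gi-type subunits, had 324, 907 and 852 under TET siRNA, against 358, 825 and 808 under non-targeting siRNA. Its mean log2 difference of 0.02, which was -0.01 under quantile normalization, was small beside its spread between clones.

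In the R12 subfamily, RGS10 was the brightest, with 3249, 4934 and 4631 under TET siRNA, against 3800.2, 5600.3 and 5822 under non-targeting siRNA. RGS10 is a small protein known for its role in microglia and other immune cells. Each clone was lower under TET siRNA, by 0.23, 0.18 and 0.33 on the log2 scale, although the groups overlapped. Its dimmer probe sets had differences of -0.03 and -0.12, with clone 1 higher and clones 2 and 3 lower at both. RGS14, a scaffold that also binds Ras and inactive Gi alpha subunits, had 667, 612 and 579 under TET siRNA at its brightest probe set, against 451, 445 and 559 under non-targeting siRNA. These groups did not overlap, and the mean log2 difference was 0.36, with clone 3 at only 0.05. The second RGS14 probe set did not show this and had -0.09. RGS12, the largest of the subfamily, had 10 probe sets, of which 1 lay in the upper 50%, with 119, 114 and 167 under TET siRNA against 109, 195 and 194 under non-targeting siRNA. The groups overlapped, and the mean log2 difference was -0.29.

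The 14 dim probe sets, 9 of them of RGS12 and the rest of RGS3, RGS4, RGS14 and RGS16, had a geometric mean signal of 3.47 to 115, against 122 or more in the 20 that were tested. A dim RGS12 probe set shows how such values scatter: its signal was 57.6, 238 and 57.6 under TET siRNA, against 126, 13.9 and 149.6 under non-targeting siRNA. The mean differences of the 14 ran from -1.54 to 0.87, those of the dim RGS4 probe sets being -1.15 and 0.36 and those of RGS14 and RGS16 -0.03 and -0.09. In the RGS12 probe set just given, clone 2 differed by 4.10 on the log2 scale while clones 1 and 3 lay on the other side of 0. The only dim probe set of the 14 whose groups did not overlap was one of RGS3, with 13.3, 15.4 and 5.65 under TET siRNA, against 19.5, 19.2 and 19.99 under non-targeting siRNA. Its geometric mean signal was 14.3. Of all tested probe sets 12.7% did not overlap, and the share among all dim ones was not counted, so nothing is read from it.

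Of the 20 tested probe sets 11 were higher and 9 lower under TET siRNA, with a median log2 difference of 0.03, beside a median of 0.02 over all 27307 tested probe sets. In limma, a linear model fitted across all tested probe sets, 0 of the 20 passed a Benjamini-Hochberg adjusted p of 0.05, where 0.0146% of all tested probe sets did, and 2 of the 20 had an unadjusted p below that value, as did 6.61% of all tested. With the clone number as a replicate block 1 of the 20, that of RGS2, passed as higher. In that fit 1.03% of all tested probe sets passed, and 0.385% passed as higher. The blocked RGS2 call was lost without clone 1, where 0.396% of all tested probe sets passed, and without clone 3, where 0.231% did. Without clone 2 it was joined by RGS19, where 2.5% of all passed. It was also lost when dim probe sets were kept (limma adjusted p = 0.0961, with 0.128% of all passing) and with plain eBayes (adjusted p = 0.321), a fit in which 0 of all 27307 passed and 3355 had an unadjusted p below 0.05. The groups did not overlap for 2 of the 20, those of RGS2 and RGS14, or 10.0%, where 12.7% of all tested probe sets did not overlap. Since this contrast was in view when the genes were chosen, nothing is read from these counts.

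Between clones, a comparison that the siRNA contrast does not enter, 4 of the 10 genes had a probe set past the threshold. RGS17, RGS10, RGS19 and RGS14 had 1 such probe set each in limma's moderated F test over the 3 clones with the treatment in the model. In all 4 the signal was lowest in clone 1. The count of 4 of 20 probe sets stands beside 8.27% of all tested probe sets. That share was larger among brighter probe sets, 13.6% when only the upper 30% were fitted, where 3 RGS probe sets passed. The members were chosen with brightness in view, so no excess is read from the count. At the brightest tested probe sets RGS17, RGS10 and RGS19 passed, as did 1279 of all 12318 genes tested. On simulated data this test made more false calls than the threshold allows. Clone 1 was the lowest of the clones in 12 of the 20 and the highest in 4. Over all tested probe sets it was the lowest in 41.4%. In 18.7% of all tested probe sets both clone 1 arrays lay below every array of the other clones. The same held for 3 of the 4 RGS probe sets that passed. Those 4 were picked by passing the clone test, so no excess is read from this.

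RGS17 differed most. Both clone 1 arrays, at 324 and 358, lay below the 4 arrays of clones 2 and 3, which ranged from 808 to 907. The difference of clone 1 minus the mean of clones 2 and 3 was -1.32 on the log2 scale, a 2.49-fold higher level in clones 2 and 3 (adjusted p = 0.00095 in limma's F test). Clones 2 and 3 differed from each other by only -0.06, clone 3 minus clone 2. The gene before RGS17 on chromosome 6, MTRF1L, had a clone 1 difference of 0.22 and did not pass the same test (adjusted p = 0.212), and the gene after it, the opioid receptor gene OPRM1, was dim and not tested.

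RGS10 had 3249 and 3800.2 in clone 1, against 4631 to 5822 in clones 2 and 3, without overlap. The difference was -0.57, a 1.49-fold higher level in clones 2 and 3 (limma adjusted p = 0.0031). Its dimmer probe sets had -0.60 and -0.46, with adjusted p-values of 0.0956 and 0.546, so they showed a similar size without passing.

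RGS19 had 1463 and 1879.8 in clone 1, against 1816 to 2744 in clones 2 and 3, so the clones overlapped when treatment is ignored. Within each treatment clone 1 was the lowest. The difference was -0.46 (limma adjusted p = 0.0416). TCEA2, the coding gene before RGS19 on chromosome 20, had -0.49 in the same comparison (adjusted p = 0.0163). OPRL1, the coding gene after RGS19, had 1.16 but was dim and not tested. The genes beside RGS10, GRK5 and TIAL1, had -0.05 and -0.12 and did not pass (limma adjusted p = 0.752 and 0.515). Of those beside RGS14, LMAN2 had 0.11 (limma adjusted p = 0.607) and SLC34A1 was dim and not tested. Neighbouring genes were read after the members' values were known.

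The second RGS14 probe set had 128 and 108 in clone 1, against 171 to 294 in clones 2 and 3, a difference of -1.02 that lay at the threshold (limma adjusted p = 0.04995). The brightest RGS14 probe set did not share it, with a clone 1 difference of 0.01 (adjusted p = 0.8996). RGS4 had the next largest clone spread among the brightest probe sets, 1.24 on the log2 scale, with 189 and 318 in clone 1, 107 and 101 in clone 2 and 208 and 164 in clone 3, and did not pass (limma adjusted p = 0.0932). Here clone 2 was the lowest. RGS3 and RGS2 were at the other end among the brightest probe sets, with clone spreads of 0.08 (limma adjusted p = 0.943) and 0.12 (adjusted p = 0.755), and RGS14 followed with 0.13.

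The clone calls changed with the arrays left out and with the variance model, and the share of all probe sets that passed changed as well. Without the clone 1 array under TET siRNA, or without that under non-targeting siRNA, RGS17 was the only member that passed, where 1.56% and 1.63% of all tested probe sets did. Without both, which leaves clones 2 and 3, 0 of the 20 passed in limma and 1 had an unadjusted p below 0.05, beside 0.106% and 4.76% of all tested probe sets. With clone 2 left out instead, probe sets of RGS17, RGS10 and RGS19 passed, where 15.9% of all tested probe sets did. With clone 3 left out, 5 of the 20 passed, where 7.99% of all did. The cause of these changes was not tested. With limma's plain eBayes, without the trend and robust steps, 0 of the 20 passed and 7 had an unadjusted p below 0.05, while of all 27307 1 passed and 4984 had such an unadjusted p. Under quantile normalization RGS17 and RGS10 passed, beside 7.87% of all.

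**Figure D3:**
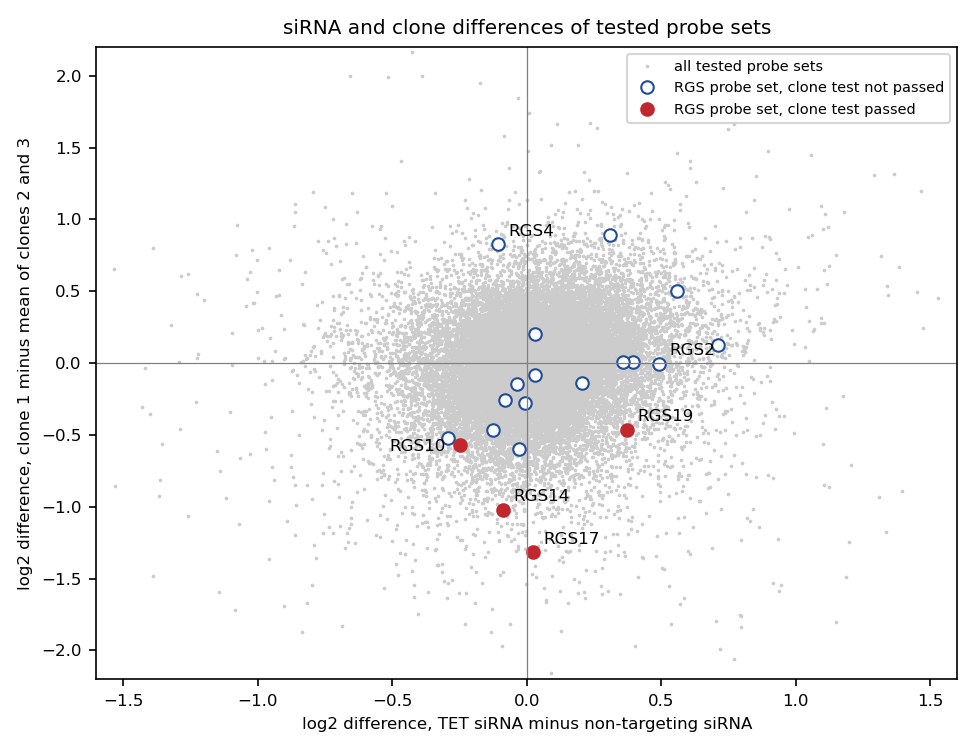
Each tested probe set by its log2 difference of TET siRNA minus non-targeting siRNA (horizontal) and of clone 1 minus the mean of clones 2 and 3 (vertical), with the 20 RGS probe sets drawn large and filled where the clone test passed; 24 points lie outside the axes. RGS2 lies to the right near 0 on the vertical axis and RGS17 lies near 0 on the horizontal axis at -1.32.

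The 5 genes whose pattern over the 6 arrays was most like that of RGS2, among 12317 compared, were TENM3, SPATA20, GREB1L, USP37 and MAP3K20. Likeness was the root mean square difference of mean-centred log2 signals, which was 0.06 for TENM3 and 0.07 for the other four. TENM3, a teneurin cell adhesion protein, had 971, 951 and 1116 under TET siRNA, against 694, 674 and 784 under non-targeting siRNA. These 5 were found by their likeness to RGS2, so a higher level under TET siRNA, by 1.33 to 1.41-fold, is part of how they were found.

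Among the genes that RGS proteins work with, 1 probe set, of GRK3, passed between the siRNA groups, and only with the replicate block. Of 11 tested genes for G protein alpha subunits, 2 were higher and 9 lower, with a median of -0.01. GNAQ, the Gq subunit on which RGS2 acts, had -0.12 at the brightest of its probe sets, while the others ranged from -0.17 to 0.29, and the neuronal subunit gene GNAO1 had -0.76 with clones in opposite directions. Of 13 beta and gamma subunit genes, 8 were higher and 5 lower, with a median of 0.08, and the gamma subunit genes GNG2 and GNG3 had 0.66 and -0.44. In each the clones disagreed, with clone 1 of GNG2 at -0.01 and clone 3 of GNG3 at 0.27. None of these 24 genes passed in limma with or without the replicate block (adjusted p of 0.203 or more with it for the 4 named).

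Of 14 tested genes for other proteins with an RGS homology domain, 6 were higher and 8 lower, with a median of -0.07. GRK3, a receptor kinase that also binds the Gq alpha subunit, was the only one to pass, and only with the replicate block. Its signal was 751, 1335 and 1279 under TET siRNA in clones 1 to 3, against 1099, 1817 and 2040.5 under non-targeting siRNA. The groups overlapped, while each clone was lower under TET siRNA, and the mean log2 difference was -0.56 (limma adjusted p = 0.790 without and 0.0254 with the block). The blocked call was lost when dim probe sets were kept (adjusted p = 0.112). Its dimmer probe sets had -0.06 and -0.09. Of the 33 probe sets of this list 1 passed with the block, beside the 1.03% given above.

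The adenylyl cyclases and phospholipases C beta, the enzymes that G proteins steer, had 6 higher and 2 lower of 8, with a median of 0.06, and ADCY1 and ADCY3 had -0.19 and 0.14. The dimmer tested probe sets of ADCY1 and ADCY3 had 0.07 and 0.06. The G protein chaperones and GoLoco proteins had 2 higher and 4 lower of 6, with a median of -0.19, and GPSM1 and GPSM2, which bind inactive Gi alpha subunits, had -0.42 and -0.21. GPSM1 had -0.28, -0.95 and -0.04 in clones 1, 2 and 3, and the dimmer GPSM2 probe sets ranged from -0.30 to 0.20. The arrestins and their relatives had 3 higher and 3 lower of 6, with a median of -0.01. ARRB1, which ends receptor signalling, had 0.31, and ARRDC4 had -0.32. The dimmer tested ARRB1 probe sets ranged from -0.22 to 0.42. The clone test passed for 6 of 36 probe sets of the alpha subunits, 1 of 25 of the beta and gamma subunits, 2 of 33 of the RGS homology domain proteins and 4 of 12 of the arrestins, and for 0 in the other 3 lists. These counts stand beside 8.27% of all tested probe sets. Among the genes named, GRK3 (limma adjusted p = 0.0031) and ARRDC4 (adjusted p = 4.3e-05) were lower in clone 1 at their brightest probe sets. GRK3 had 751 and 1099 there, against 1279 to 2040.5 in clones 2 and 3. Its dimmer probe sets had clone 1 differences of -0.01 and -0.52 and did not pass (limma adjusted p = 0.998 and 0.245). Among the other RGS genes, RGS7, a member of the R7 subfamily, had -0.09 and RGS20 had 0.41, with clone 3 at -0.26 for RGS20. Over all 12318 genes tested the median was 0.01 and 51.9% were higher. None of these 4 lists had a probe set past the threshold between the siRNA groups in limma, with or without the block.

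**Figure D4:**
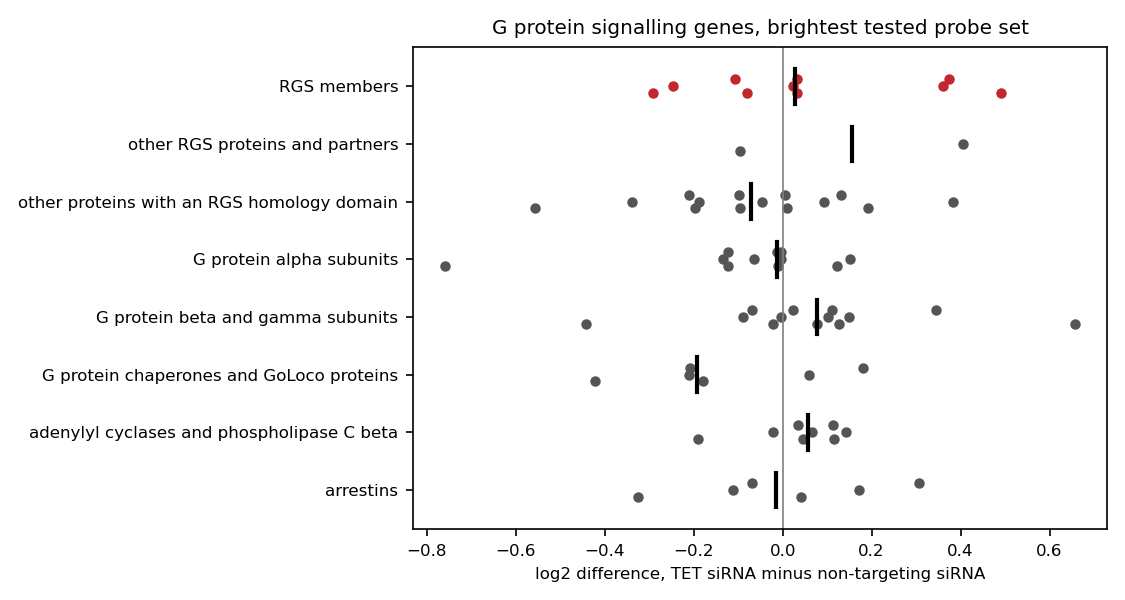
Log2 difference of TET siRNA minus non-targeting siRNA (horizontal axis) at the brightest tested probe set of each gene, with a row per list, a point per gene and a bar at the median. The RGS members run from -0.29 to 0.49 around a median of 0.03.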

How the data were processed

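The authors deposited MAS5 intensities on a linear scale, 1 per probe set and array, and MAS5 stands in the list of tools, per the submitters' processing notes. The MAS5 release was not given in the sources used here. A trimmed mean without the highest and lowest 2% was the same on every array, so no further scaling was applied, and log2 was taken of the deposited intensity. Detection calls were not used here, so a dim probe set is known only by its signal.

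Of 54675 probe sets, 62 controls were left out, and 41091 of the rest had 1 gene in the platform annotation, 41037 of them found by Entrez ID in the RefSeq table of GRCh38.p14. The upper 50% by mean log2 signal (27307 probe sets, a geometric mean signal of at least 117) were tested in limma 3.58.1 (R 4.3.3) with trended, robust eBayes, two-sided, across all probe sets with Benjamini-Hochberg adjustment. The siRNA comparison had no clone term, and the clone comparison was an F test with the treatment in the model. Plots used matplotlib 3.10.9. On simulated data the sizes of the changes put in were recovered, but the siRNA fit without the block missed most changed probe sets, and the clone test and the fit with the block made more false calls than the threshold allows.

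The replicate number pairs arrays because the labels give it as the clone number. After the group means were subtracted, the arrays of a clone correlated at 0.493, 0.234 and 0.236 for clones 1, 2 and 3, and arrays of different clones at -0.372 to 0.219, the highest being TET siRNA clone 2 against control clone 3. With 3 clones per group, the number of arrays limits the precision, and p-values of the siRNA fit without the block measure the spread between clones of 1 line. Those of the blocked fit and the clone test measure what is left between the arrays of a clone once treatment and clone are fitted. Correlations of log2 signal between arrays, over tested probe sets, were 0.972 to 0.986.

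The members, gene lists and tests were chosen with earlier results of these data known. Every member was led by its brightest probe set, and the others were given by value or by range. In each list the genes passing with or without the block were named, or else the 2 of smallest p.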

Additional observations from a re-analysis of the deposited data

How the results depend on the processing

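With the clone number as a replicate block, the siRNA comparison had 282 probe sets past the threshold in place of 4, 1 RGS probe set (RGS2) in place of 0, and all 3 of TET1, TET2 and TET3 at their brightest probe sets in place of 1. Blocked fits were also tried in combinations chosen after seeing the data: the RGS count was 1 with quantile normalization, 2 (RGS2 and RGS19) without clone 2, and 0 without clone 1, without clone 3, with plain eBayes or when dim probe sets were kept. In unblocked fits the siRNA comparison had 14 past the threshold in the upper 30% of probe sets, 1 with plain eBayes and 14 genes with all probe sets of a gene averaged, and the TET genes past it were 2, 0 and 2 in the same order. Leaving out arrays or clones gave 0 to 121 in the siRNA comparison, 0 in each case for the RGS probe sets and 0 to 2 for the TET genes.

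The clone comparison had 2259 probe sets past the threshold, 847 with no filter, 1 with plain eBayes, 998 genes with probe sets averaged, and 29 to 4600 with arrays or clones left out. Of the RGS probe sets 4 passed, 2 with no filter, 2 with quantile normalization, 0 with plain eBayes and 0 to 5 with arrays or clones left out. RGS17 had a passing probe set in 13 of 15 alternatives, RGS10 in 11, RGS19 in 8 and RGS14 in 3. The cause of these changes was not tested beyond what the fewer arrays or probe sets of an alternative show.

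Alternatives that change only the test or the probe sets tested repeat the log2 difference and say nothing about its direction. Of those that moved it, at the brightest probe sets, 0 of 11 turned the sign for RGS2 (0.45 to 0.53), RGS19 (0.22 to 0.53) and RGS12 (-0.57 to -0.05), and 0 of 12 for RGS10 (-0.44 to -0.06) and RGS14 (0.14 to 0.51). For RGS2 and RGS14, whose groups did not overlap, leaving out arrays or clones could not turn the sign. Leaving out a clone could not turn it for RGS19 or RGS10, whose clones all differed in the same direction. The genes were chosen with this contrast in view, so nothing is read from these counts. For RGS10 the extremes came from leaving out 1 clone 1 array, -0.06 without that under TET siRNA and -0.44 without that under non-targeting siRNA. The RGS12 extremes were -0.05 without clone 2 and -0.57 without the non-targeting array of clone 1. The lowest RGS19 value also came without that array, and the lowest RGS14 value with probe sets averaged. The sign turned in 6 of 11 for RGS17, 3 of 12 for RGS16, 4 of 12 for RGS3 and RGS5 each, and 3 of 11 for RGS4. Leaving out 1 array breaks the pairing of clones in these fits without a block, so clone differences enter the estimate. RGS17 went to 0.50 without the clone 1 array under TET siRNA and to -0.37 without that under non-targeting siRNA. Its differences within clones 1, 2 and 3 were only -0.14, 0.14 and 0.08.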
